A study of Homo sapiens with 24 samples.

Results

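Detained introns, as the term is used here, are introns whose boundaries many reads of polyadenylated RNA crossed unspliced in HCT116 cells without drug. They were chosen by their level in the DMSO samples, with a rule on the deposited percent spliced in (PSI), the share of a splice site's reads that use a given junction or cross the exon–intron boundary there unspliced. An intron of at least 100 bases was taken where the boundary PSI lay between 25 and 90% at both of its ends, in the mean of WT DMSO and in that of Y36C DMSO. Both splice sites also had reads in all 24 samples, and the junction that removes the intron was the most used spliced junction at both sites over the DMSO samples. Of 88641 introns that met the last pair of conditions, 1141 (1.29%) met the rule. They lay on 23 chromosomes, and 1108 of them matched an annotated intron, in 754 genes. Throughout, retention is the mean of the PSI at the 2 boundaries, in percent.

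The samples were polyA RNA from HCT116, a human colorectal carcinoma line, with 6 samples in each of 4 groups that pair WT or Y36C with DMSO or E7107. WT and Y36C stand for PHF5A, a protein of the SF3b complex that recognises the branch point, expressed from a lentiviral cDNA without or with the Y36C change in cells that keep their own PHF5A gene. E7107 is a pladienolide derivative that binds SF3b, given for 6 h by the study's methods, and DMSO is its solvent. The labels give no dose and do not say that replicates came from separate cultures, so p-values measure the spread between these samples only. The files hold percentages without read counts, so depth is unknown. Between 281164 and 283548 splice sites had reads in a WT E7107 sample, and between 328458 and 340081 in a sample of the other groups. The part of this gap in the results was not tested. Of 10 colorectal epithelial markers, 5 (EPCAM, CDH1, KRT8, KRT18 and KRT19) had introns read in every sample, and of 10 markers of other lineages 3 had (COL1A1, SYT1 and PMEL).

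Most introns are removed while the RNA is still being made, but some stay in transcripts that are otherwise spliced and polyadenylated. Such transcripts are often kept in the nucleus, where they can be spliced later or degraded, and genes for splicing factors and RNA-processing kinases are known for introns of this kind. Reads from whole-cell RNA cannot tell an intron detained in the nucleus from one retained in cytoplasmic mRNA. Nor can a PSI from bulk RNA tell a few cells with much unspliced RNA from many with a little, or more unspliced RNA from less spliced RNA.

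Short introns with differences described below are printed here 5′ to 3′ on the transcript strand, from GRCh37, the sequence of hg19. Capitals mark the first and last 2 bases, which the spliceosome reads as the splice sites, and any match to CTNAC, a short form of the branch point consensus, in the 35 bases from 50 to 16 before the intron's end. The first 3 of them lay between coding exons and were lower in WT E7107 than in Y36C E7107. They are METTL3 intron 9 (chr14:21967282-21967449, minus strand), where an exon of the opposite strand crosses a boundary, and METTL3 intron 8 (chr14:21967516-21967635, minus strand), both from the gene of the RNA N6-adenosine methyltransferase, and QTRT1 intron 6 (chr19:10822976-10823228, plus strand), from the gene of the catalytic subunit of tRNA-guanine transglycosylase.
METTL3 intron 9: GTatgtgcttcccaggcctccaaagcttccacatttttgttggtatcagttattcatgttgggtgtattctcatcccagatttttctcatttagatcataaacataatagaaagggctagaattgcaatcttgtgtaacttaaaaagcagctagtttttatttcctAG
METTL3 intron 8: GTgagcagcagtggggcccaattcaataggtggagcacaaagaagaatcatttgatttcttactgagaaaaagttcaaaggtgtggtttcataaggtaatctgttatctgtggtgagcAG
QTRT1 intron 6: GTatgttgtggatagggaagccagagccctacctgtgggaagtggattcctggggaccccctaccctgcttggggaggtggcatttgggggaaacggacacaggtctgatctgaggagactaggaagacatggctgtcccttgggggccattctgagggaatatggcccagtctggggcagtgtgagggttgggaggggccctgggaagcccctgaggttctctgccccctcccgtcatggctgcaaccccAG
The other 3 were higher in WT E7107 than in Y36C E7107. They are SNHG1 intron 6 (chr11:62621306-62621489, minus strand), in a noncoding RNA that hosts small nucleolar RNAs, KLHL17 intron 5 (chr1:897852-898083, plus strand), in the gene of a kelch-family protein, and CCNT2 intron 9 (chr2:135711950-135712050, plus strand), in the gene of cyclin T2, a partner of CDK9. METTL3 intron 8 and CCNT2 intron 9 were outside the rule for named introns and were chosen after their values were seen.
SNHG1 intron 6: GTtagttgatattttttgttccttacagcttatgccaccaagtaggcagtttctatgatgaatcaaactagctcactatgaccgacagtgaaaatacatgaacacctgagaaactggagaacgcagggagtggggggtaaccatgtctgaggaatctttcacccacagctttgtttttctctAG
KLHL17 intron 5: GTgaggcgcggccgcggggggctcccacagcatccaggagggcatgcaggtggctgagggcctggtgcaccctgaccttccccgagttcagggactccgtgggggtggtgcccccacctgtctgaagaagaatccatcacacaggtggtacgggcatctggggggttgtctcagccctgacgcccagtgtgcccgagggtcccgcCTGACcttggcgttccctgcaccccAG
CCNT2 intron 9: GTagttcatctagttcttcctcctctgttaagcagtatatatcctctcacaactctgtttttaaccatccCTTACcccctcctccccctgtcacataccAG
KLHL17 intron 5 and CCNT2 intron 9 held 1 match to CTNAC each, and the other 4 held none. Over all detained introns 20.4% held a match on the transcript strand in this window, against 19.4% of the 87500 other introns.

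Detained introns were short and GC-rich, features that the rule did not use apart from the minimum length. Their median length was 462 bases (quartiles 230 and 1215) against 1565 (566 and 3903) in the other introns, and 35.6% were under 300 bases against 14.6%. Median GC content was 56.4% (47.4 and 62.8) against 43.4% (37.8 and 52.4). Their splice sites lay further from the consensus. A score over 9 bases at the 5′ splice site, the sum of log2 ratios of base frequencies in the other GT-AG introns to equal frequencies, had a median of 7.34 against 8.32, and the score over 23 bases at the 3′ splice site 7.56 against 9.65. The pyrimidine share before the 3′ splice site had the same median of 76.5% in both sets. GC-AG introns made up 1.75% of the detained set (20 introns) and 0.768% of the others, and 1 detained intron was AT-AC.

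**Figure D1:**
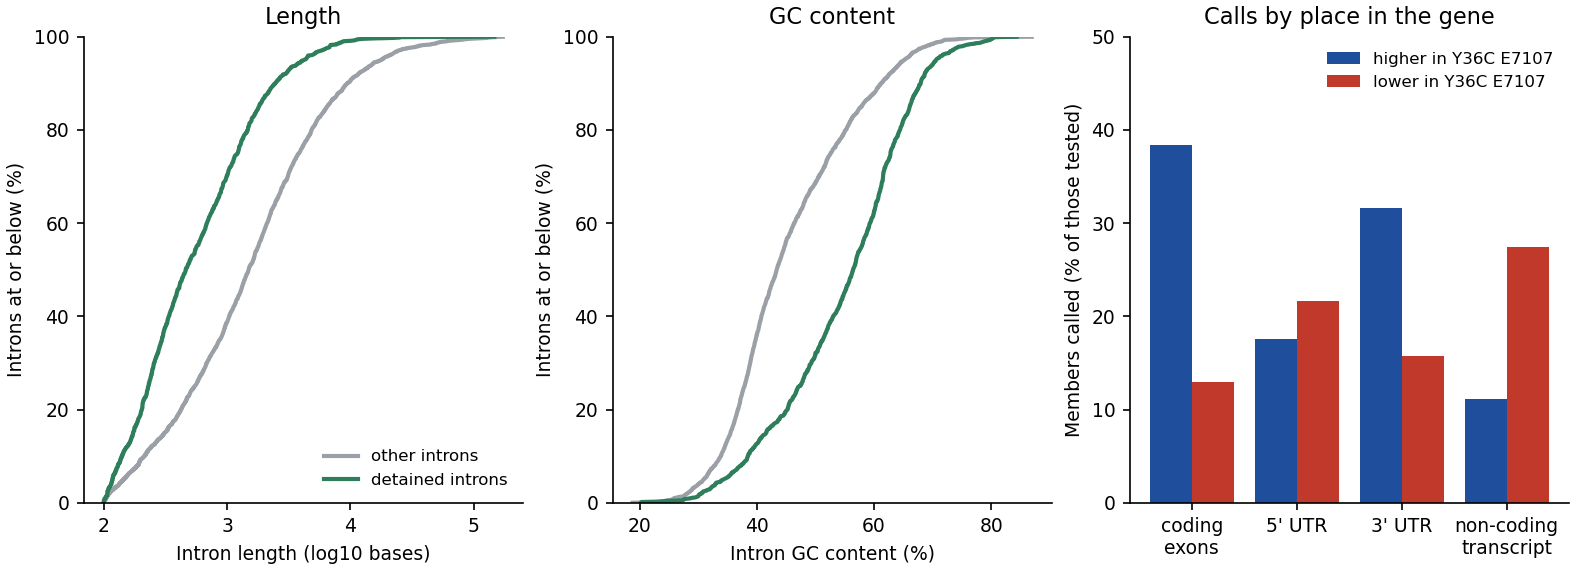
Cumulative distributions of intron length (log10 bases) and GC content (%) for the detained introns and for 3000 of the other introns drawn at random, and, by place in the gene, the share of detained introns tested that were called higher (blue) or lower (red) in Y36C E7107 than in WT E7107. The detained set lies at shorter lengths and higher GC content, and the calls lean to higher between coding exons (38.4% against 13.0%) and to lower in non-coding transcripts (11.1% against 27.5%).

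Many detained introns were already part of an annotated exon. Of the 1141, 531 (46.5%) lay whole inside an exon of the same strand in another transcript, against 7.65% of the other introns, and 353 lay inside a transcript that the annotation itself types as a retained intron. The annotation placed 817 between coding exons, 75 in 5′ UTRs, 59 in 3′ UTRs and 157 in non-coding transcripts, and 33 matched no annotated intron. The last intron of its transcript made up 19.8% of the set and 9.61% of the others, and the first 13.1% and 9.67%. An exon of the opposite strand crossed a boundary in 11.6% against 3.39%. The methods do not say whether the libraries keep strand, so antisense RNA cannot be told apart from retention there. Pseudogenes held 62 of the introns (5.43%, against 0.392% of the others), and reads of near-identical copies make those values uncertain.

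In DMSO, by which the set was chosen, levels are given as a description without a test. Over the 1141 introns the median retention in a sample ran from 44.04 to 46.6% in WT DMSO and from 45 to 47.3% in Y36C DMSO, while the other introns had medians of 0.980 to 1.22% and 0.746 to 0.874%. Mean retention over the DMSO samples was under 40% in 420 members, from 40 to 60% in 480 and higher in 241. The rule's limit fell inside a continuous range. Just inside it, the lowest of the 4 boundary means was 25.0005% in MLXIPL, 25.0337% in MST1P2 and 25.0373% in RBM12B intron 3, and just outside it 24.9735% in RASAL1, 24.9707% in PPP6R2 and 24.9604% in SYTL1. At the other limit the highest boundary mean was 89.963%, and 366 introns stayed out because a boundary mean was over 90%. The 2 boundaries of an intron differed by a median of 6.27 points in WT DMSO. Samples of a group scattered widely for many members. The largest of an intron's 8 SDs (2 boundaries in 4 groups) had a median of 15.1 points, and 265 members had none over 10 points.

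Members in the gene lists are given beside 1.29% of all introns, with no test. Among 126 introns read in 13 of 16 genes of CLK, SRPK and DYRK family kinases, which phosphorylate splicing factors, no member was found. Their highest mean retention in DMSO was 28.3% (HIPK2 intron 7). None of 289 introns of nonsense-mediated decay factors was a member either, where UPF3A intron 3 was highest with 34.2%. Both introns missed the rule's limits at a boundary. Introns whose junction was not the most used at both sites were not counted, so these genes may hold detained introns of that kind. Above 1.29% were SR protein genes with 3 members among 73 introns (4.11%), cyclins, their kinases and cell-cycle regulators with 16 of 410 (3.90%), O-GlcNAc, methionine and m6A genes with 4 of 215 (1.86%), and RBM and other splicing regulators with 13 of 844 (1.54%). Below it were DEAD and DEAH box helicases with 7 of 739 (0.947%), hnRNP and related genes with 2 of 235 (0.851%), core spliceosome genes with 6 of 825 (0.727%), and cleavage and export factors with 1 of 581 (0.172%). Noncoding host genes of small nucleolar RNAs and other long noncoding RNAs had the largest share of these 11 lists, 12 of 89 (13.5%).

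Under E7107, the median retention of the detained introns was higher in Y36C cells than in WT cells, while that of the other introns was lower. This comparison rests on the 12 E7107 samples, which the rule did not use beyond asking for reads. The median over the detained introns was 47.7, 49.98 and 50.9% (lowest, median and highest sample) in WT E7107 and 57.0, 58.1 and 58.9% in Y36C E7107, so that the groups did not overlap. For the other introns the sample medians ran from 5.59 to 8.06% in WT E7107 and from 1.34 to 1.47% in Y36C E7107, also without overlap and in the opposite order. The median difference, Y36C E7107 minus WT E7107, was 9.36 points over the detained introns (quartiles -8.00 and 24.7) and -3.89 points over the others.

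**Figure D2:**
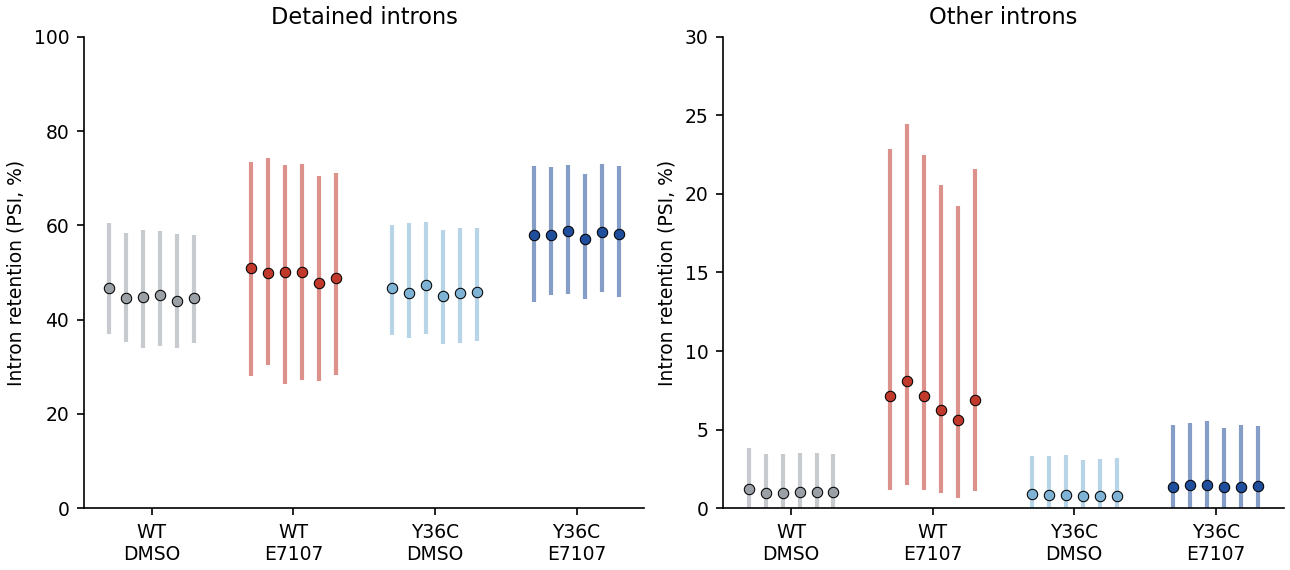
Median retention (PSI, %) in each of the 24 samples, as a point with the quartiles as a bar, for the detained introns (left, axis to 100%) and the other introns (right, axis to 30%). Detained introns have their highest medians in Y36C E7107 (57.0 to 58.9%), and the other introns in WT E7107 (5.59 to 8.06%).

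At single introns the comparison went both ways. The natural log odds of PSI were fitted with limma across all junctions and boundaries, and an intron was called where both boundaries had a Benjamini–Hochberg adjusted p of 0.05 or less in the same direction. Of 1141 members 1109 passed the filter on low values, and 356 were called higher and 176 lower in Y36C E7107. Over all 38824 introns tested, 8.39% were called higher and 63.4% lower. Among members the shares were 32.1% and 15.9%. The filter keeps an intron that is above 0 in all samples of either group. Without it all 1141 members were tested, with 334 called higher (29.3%) and 169 lower (14.8%), beside 4.21% and 35.0% of 84671 introns. In the 265 members of low scatter, 103 were called higher and 66 lower. The median of their group means was 60.7% in WT E7107 and 62.6% in Y36C E7107, a smaller gap than the 49.2% and 58.0% over all members. The set was spread most widely in WT E7107: 211 members fell below 25% there and 92 were above 90%, against 19 and 24 in Y36C E7107. Single WT E7107 samples had 29 to 35 members at 0% and 28 to 39 at 100%, against 0 to 1 and 4 to 10 in Y36C E7107 samples. The median SD of a member was 8.32 points in WT E7107 and 6.74 in Y36C E7107. WT E7107 also had the fewest splice sites with reads, and the part of depth in this spread was not tested.

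**Figure D3:**
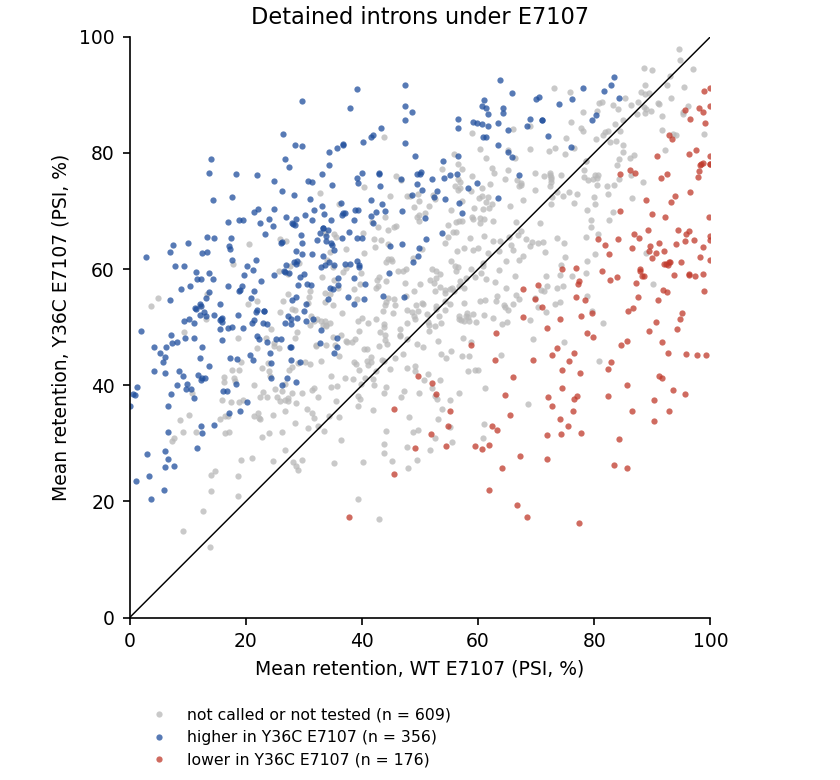
Mean retention (PSI, %) of each detained intron in WT E7107 (horizontal) and Y36C E7107 (vertical), coloured by the call at both boundaries, with the line of equal values. The 356 introns called higher in Y36C E7107 (blue) lie mostly at the left, at low retention in WT E7107, and the 176 called lower (red) mostly at the right, at high retention in WT E7107.

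Among introns that passed the filter on low values, the balance of calls differed with the level in DMSO. Among the other introns, those at 0 to 5% retention in DMSO were called lower in Y36C E7107 in 75.7% of those tested and higher in 3.81%. At 5 to 10% the shares were 43.0% and 15.8%, and at 10 to 25% they were 29.4% and 21.7%. In the detained bands, which are members only, calls of higher outnumbered calls of lower, with 33.6% against 16.0% at 25 to 40%, 31.7% against 16.4% at 40 to 60% and 30.4% against 14.6% at 60 to 90%. The shares thus moved in the same direction from band to band below the limit of the rule and changed little above it. The filter left 27698 of 72361 introns at 0 to 5%, 4832 of 8035 at 5 to 10% and 4068 of 5741 at 10 to 25%. In the detained bands it left 399 of 420, 470 of 480 and 240 of 241. Shares without the filter were not computed by band, so its part in the pattern was not tested. Introns near 0 in DMSO also have little room to fall under the drug, and the part of this was not tested either. Another 1363 introns at or above 25% that did not meet the rule are in none of these bands.

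**Figure D4:**
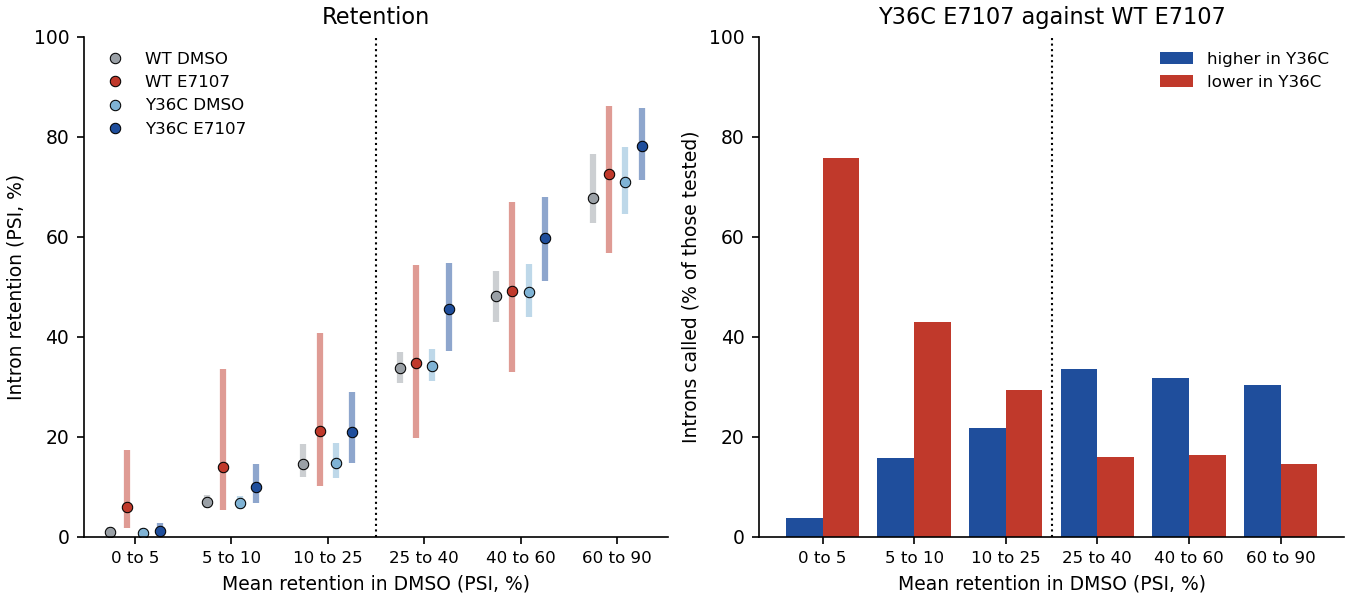
Left, median retention (PSI, %, points) with quartiles (bars) in the 4 groups for introns in bands of mean DMSO retention. Right, the share of introns tested in each band that were called higher or lower in Y36C E7107 than in WT E7107. Bands right of the dotted line hold detained introns and those left of it other introns. Calls of lower drop from 75.7% to 14.6% along the axis, and calls of higher pass them from 25% on. Shares are of introns that passed the filter on low values, 27698 of 72361 in the lowest band and 240 of 241 in the highest.

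Calls are given next by place in the gene and by sequence, beside the other introns of the same class. Introns between coding exons were called higher in Y36C E7107 in 304 and lower in 103 of 792 tested, those of non-coding transcripts in 17 and 42 of 153, those of 5′ UTRs in 13 and 16 of 74 and those of 3′ UTRs in 18 and 9 of 57. For the other introns the shares called higher and lower were 7.88% and 65.1% between coding exons, 4.26% and 55.4% in non-coding transcripts, 3.23% and 67.8% in 5′ UTRs and 16.2% and 47.9% in 3′ UTRs. Members from 60% GC upwards were called higher in 158 and lower in 52 of 419, and members under 45% GC in 43 and 56 of 218. The other introns had 13.1% and 50.1% from 60% GC upwards and 4.08% and 74.3% under 45% GC. Among introns tested, the share called higher was thus the larger at high GC in both sets. The shares of other introns in each class are of those that passed the filter on low values. That was 6214 of 9904 from 60% GC upwards and 16844 of 48714 under 45% GC, and the part of the filter in these shares was not tested. Median GC content was 58.5% in the members called higher and 52.0% in those called lower, with median lengths of 364 and 551.5 bases. The 5′ and 3′ splice site scores had medians of 7.22 and 7.12 in members called higher, and 7.95 and 8.597 in those called lower. Pseudogene introns were called higher in 5 and lower in 19 of 60, beside 1.97% and 62.6% of the other pseudogene introns, and leaving them out gave 351 and 157 calls of 1049. Members whole inside an annotated exon of their strand were called higher in 205 and lower in 75 of 520. Where no exon of either strand crossed a boundary, 51 were called higher and 55 lower of 249. Median retention in these 257 members was 57.2% in WT E7107 and 59.6% in Y36C E7107. For these classes the other introns were not counted, and over all introns tested the shares were 8.39% and 63.4%.

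Several members of a gene mostly went together. In 94 genes at least 2 members were called, and in 60 of these all were higher and in 28 all were lower in Y36C E7107, with 6 genes mixed. Over all members tested 32.1% were called higher and 15.9% lower, and agreement within genes was not counted for the other introns or tested. AREG and AREGB, with 3 members called lower each, and WASH7P, WASH8P and WASHC1 stand as separate genes in these counts, although gene copies may share reads. Members of a gene share its transcripts, so they are not separate observations. MAN2C1, the gene of a cytosolic alpha-mannosidase, had the most members (9), and 5 of them were called higher. SYTL1, for a synaptotagmin-like vesicle protein, had 6 called, all higher, and CDK11A 4, all lower. These 3 genes were picked after the values were seen.

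Among introns of low scatter, with an SD of at most 10 points at both boundaries in each group, those with the largest differences follow. Except for GTF2IP4 intron 18, RBM12B intron 3 and KLHL17 intron 5, they lie whole inside an annotated exon of their strand. GTF2IP4 intron 18 (chr7:72614673-72616151) had 3.70, 13.8 and 22.1% (lowest, median and highest sample) in WT E7107 and 71.5, 79.0 and 86.6% in Y36C E7107. The groups stood far apart, with a difference of 65.0 points and limma adjusted p of 4.7e-05 and 2.6e-05 at the 5′ and 3′ boundaries. GTF2IP4 is a pseudogene copy of GTF2I, so the reads may belong to more than 1 locus.

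In QTRT1 intron 6, retention was 9.08, 13.7 and 17.4% (lowest, median and highest) in WT E7107 and 73.1, 76.9 and 80.2% in Y36C E7107. Its WT DMSO samples lay between 53.8 and 67.5% and its Y36C DMSO samples between 63.7 and 75.7%. Thus WT E7107 was below all other groups, and the 2 Y36C groups overlapped. Y36C E7107 exceeded WT E7107 by 62.8 points, with log odds of 2.96 (SE 0.20) and 2.99 (SE 0.10) at the 5′ and 3′ boundaries and limma adjusted p of 1.5e-07 and 7.3e-10.

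METTL3 intron 9 had 11.98, 18.98 and 21.9% in WT E7107 and 72.6, 76.2 and 79.7% in Y36C E7107, with 46.1 to 54.2% in WT DMSO and 44.3 to 54.9% in Y36C DMSO. The drug groups lay on either side of the overlapping DMSO groups. Their difference was 58.0 points (limma adjusted p = 3.9e-08 and 2.2e-08). Intron 8 of the same gene had 21.4, 25.2 and 40.5% in WT E7107 and 73.0, 82.4 and 86.4% in Y36C E7107, again without overlap (52.9 points, limma adjusted p = 1.4e-05 and 1.4e-07). The other 7 introns of METTL3 had a median of 10.2% in WT DMSO, 15.4% in WT E7107 and 20.1% in Y36C E7107.

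MUTYH intron 11 (chr1:45797522-45797694), in the gene of a DNA glycosylase of base excision repair, had 10.46, 17.5 and 22.3% in WT E7107 and 60.7, 67.5 and 76.6% in Y36C E7107. It also matches an intron of another annotated gene. The groups were separate, 51.2 points apart (limma adjusted p = 3.1e-07 and 8.5e-07). Its DMSO groups did not overlap either, at 24.97 to 35.2% in WT and 38.0 to 51.4% in Y36C. CDK5RAP3 intron 7 (chr17:46053020-46053234), in the gene of a regulator of the UFM1 pathway, likewise matching more than 1 gene, had 12.5, 16.3 and 25.7% in WT E7107 and 63.8, 65.3 and 67.3% in Y36C E7107. The latter lay within the range of WT DMSO (55.7 to 68.6%), and the difference was 47.8 points (limma adjusted p = 5.9e-06 and 2.6e-08). CDK5RAP3 intron 7 was named by its fall from WT DMSO to WT E7107, so the WT E7107 values compared here also chose it.

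**Figure D5:**
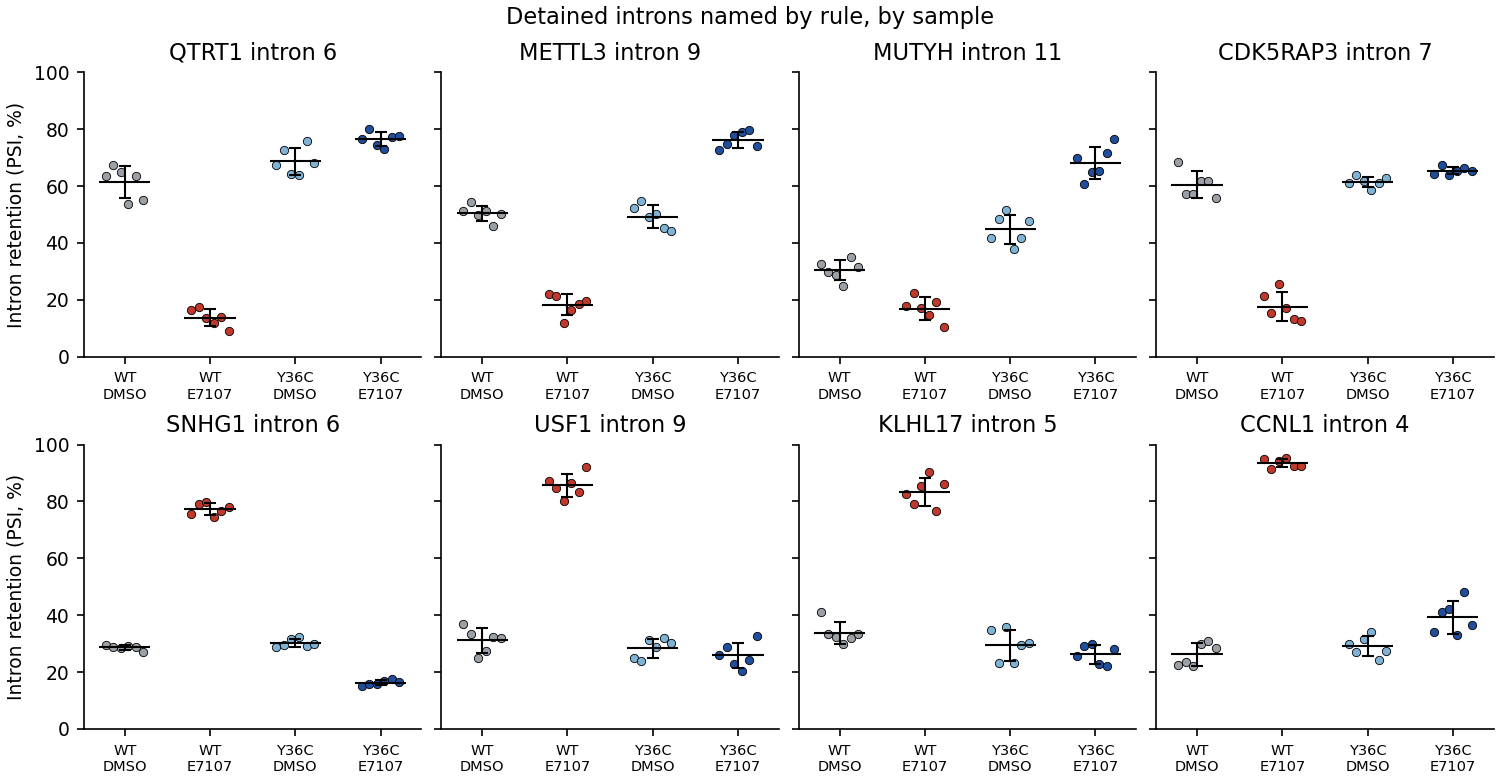
Retention (PSI, %) in each sample (points), with mean and SD (bars), of 8 of the introns named by rule. In the upper row WT E7107 is the lowest group at every intron, and in the lower row it is the highest, with 74.5 to 79.8% at SNHG1 intron 6.

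In the other direction, SNHG1 intron 6 had 74.5, 77.2 and 79.8% in WT E7107 and 15, 16.2 and 17.6% in Y36C E7107. The DMSO groups lay between them, at 26.9 to 29.4% in WT and 28.9 to 32.3% in Y36C, so that both drug groups were off the DMSO range on opposite sides. The drug groups differed by -61.1 points, with log odds of -2.91 (SE 0.09) and -2.71 (SE 0.08) and limma adjusted p of 3.2e-10 and 1.7e-10. SNHG1 intron 9, its second member, had a range of 66.0 to 71.9% in WT E7107 and 15.4 to 19.2% in Y36C E7107. Of the gene's 9 other introns, 8 were also called lower in Y36C E7107.

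USF1 intron 9 (chr1:161010121-161010365), in the gene of a basic helix-loop-helix transcription factor, had 80.1, 85.6 and 92.0% in WT E7107 and 20.3, 25.1 and 32.6% in Y36C E7107. Y36C E7107 overlapped both DMSO groups and WT E7107 stood above all, with a difference of -59.8 points (limma adjusted p = 1.6e-07 and 1.5e-07). RBM12B intron 3, in the 5′ UTR of an RNA-binding protein gene, had 91.3, 92.6 and 95.4% against 30.9, 35.7 and 40.9%. KLHL17 intron 5 had 76.7, 84.0 and 90.3% against 22.2, 27.0 and 29.95%. Both pairs of groups were separate, with differences of -57.3 and -57.1 points, and the largest limma adjusted p at any of these boundaries was 1.8e-07.

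The counts in the gene lists that follow stand beside 32.1% higher and 15.9% lower over all members tested, and 8.39% and 63.4% over all introns tested. No list was tested against those shares. Of the introns named below from the lists, only SRSF10 intron 1, MAT2A intron 8 and SNHG4 intron 6 do not lie whole inside an annotated exon of their strand. For the others, retention cannot be told from use of that exon. Among SR protein genes, whose products bind exons and guide splice site choice, 1 member was called higher, 1 lower and 1 neither. SRSF2 intron 4 (chr17:74730645-74731142), in the 3′ UTR, had 88.4 to 89.9% in WT E7107 and 89.6 to 90.9% in Y36C E7107. These ranges overlapped, and the limma adjusted p was 0.27 and 0.31. SRSF10 intron 1 (chr1:24301571-24304400), which the annotation places in a non-coding transcript of the gene, had 85.2, 90.7 and 96.2% in WT E7107 and 75.4, 79.3 and 83.9% in Y36C E7107, a difference of -11.3 points without overlap (limma adjusted p = 0.0026 and 0.0042). SRSF5 intron 5 (chr14:70235969-70237183), named after its values were seen, had 20.2, 22.4 and 23.3% in WT E7107 and 46.8, 48.3 and 51.1% in Y36C E7107, and was higher by 26.6 points (limma adjusted p = 1.7e-06 and 2e-07).

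The hnRNP list had 1 call. HNRNPM intron 6 (chr19:8530247-8530363) had 51.6, 53.5 and 55.8% in WT E7107 and 64.9, 66.3 and 67.3% in Y36C E7107, a separate and higher group by 12.5 points (limma adjusted p = 2.1e-05 and 4e-05). In DMSO the genotypes also stood apart, at 51.9 to 54.6% in WT and 57.7 to 61.2% in Y36C, a gap of 6.23 points. HNRNPA2B1 intron 12 (chr7:26230081-26230612), in the 3′ UTR, overlapped between genotypes, with 20.2 to 31.5% and 25.3 to 36.2%, and only its 3′ boundary passed (limma adjusted p = 0.62 and 0.0023).

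Core spliceosome genes had 2 members called higher and 1 lower of 6. USP39 intron 12 (chr2:85875977-85876139), in the 3′ UTR of a gene for a tri-snRNP protein, had 83.4 to 85.0% in WT E7107 and 87.8 to 92.1% in Y36C E7107. That small step of 5.16 points was free of overlap (limma adjusted p = 0.002 and 0.0023). SNRPE intron 1 (chr1:203830872-203831309), in a non-coding transcript of the gene of an Sm protein, had 32.4 to 49.98% and 40.5 to 49.4%, with adjusted p of 0.87 and 0.28 by limma.

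RBM and other splicing regulators had 3 members called higher and 5 lower of 13, beside the same shares over members and over all introns. KHSRP intron 19 (chr19:6414132-6415151), a GC-AG intron in the gene of a KH-domain protein, had 80.8, 83.0 and 84.0% in WT E7107 and 89.9, 91.8 and 94.2% in Y36C E7107. It was higher by 8.86 points without overlap (limma adjusted p = 4.3e-05 and 4.4e-05). RSRP1 intron 3 (chr1:25570125-25571640), in the gene of an arginine- and serine-rich protein, had 25.2 to 34.0% in WT E7107 and 20.4 to 31.7% in Y36C E7107. These ranges overlapped (limma adjusted p = 0.44 and 0.69), while both lay below the DMSO ranges of 65.4 to 78.7% in WT and 61.9 to 71.0% in Y36C.

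Helicase genes had 1 member called higher and 2 lower of 7. DDX11 intron 8 (chr12:31242425-31242819), in the gene of a DNA helicase, had 68.6, 70.2 and 77.3% in WT E7107 and 84.0, 85.6 and 87.9% in Y36C E7107, higher by 14.5 points (limma adjusted p = 1.3e-05 and 0.00027). Its DMSO samples did not overlap either, at 56.8 to 63.4% in WT and 65.9 to 73.9% in Y36C, a gap of 9.20 points, and the interaction was not called (limma, larger adjusted p = 0.070). DDX11 has near-identical copies, DDX12P among them with 3 members of its own, so its reads are uncertain. DDX17 intron 11 (chr22:38884121-38888060), in the gene of an RNA helicase, had 19.4 to 39.2% and 31.7 to 35.98%, with overlap and adjusted p of 0.12 and 0.25 by limma. EIF4A2 intron 10 (chr3:186505672-186506098), in a translation initiation helicase gene and named after its values were seen, had 74.97, 75.7 and 78.2% in WT E7107 and 34.2, 35.7 and 36.6% in Y36C E7107 (limma adjusted p = 2.6e-09 and 1e-09).

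Genes of nutrient sensing and RNA methylation had 3 members called higher, 2 of them in METTL3, and 1 lower. OGT intron 4 (chrX:70764486-70767756), in the gene of the O-GlcNAc transferase and long known as detained, had 45.9, 52.3 and 63.5% in WT E7107 and 69.7, 74.6 and 75.7% in Y36C E7107. It was higher by 20.5 points without overlap (limma adjusted p = 0.0081 and 2.4e-05). The boundaries differed, with means of 63.8% in WT E7107 and 72.8% in Y36C E7107 at the 5′ boundary and 42.1% and 74.1% at the 3′ boundary. The interaction was not called (limma, larger adjusted p = 0.20). MAT2A intron 8 (chr2:85770158-85770792), in the gene of the S-adenosylmethionine synthase and chosen after its values were seen, went the other way, with 82.6, 85.2 and 89.2% in WT E7107 and 36.2, 40.8 and 41.6% in Y36C E7107 (limma adjusted p = 3.7e-09 and 1.5e-08). The 5 other introns of MAT2A had a median of 81.9% in WT E7107 and 11.2% in Y36C E7107.

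Cyclins, their kinases and cell-cycle regulators had 3 members called higher and 8 lower of 16, beside 32.1% and 15.9% over all members and 8.39% and 63.4% over all introns. Of the 8, 4 were introns of CDK11A. CHEK1 intron 12 (chr11:125525243-125526100), in the 3′ UTR of the checkpoint kinase gene, had 77.3, 84.3 and 87.9% in WT E7107 and 88.6, 93.6 and 96.6% in Y36C E7107 (higher by 9.73 points, limma adjusted p = 0.0017 and 0.0046). CDK10 intron 8 (chr16:89759876-89760580) had 50.6 to 65.8% and 65.0 to 74.2%, which overlapped slightly, with a difference of 12.4 points and adjusted p of 0.0093 and 0.021 by limma. A gap of 7.22 points without overlap was there in DMSO, at 58.5 to 65.7% in WT and 67.7 to 73.7% in Y36C, and the interaction was not called (limma, larger adjusted p = 0.39). CCNL1 intron 4 (chr3:156870031-156870824), in the gene of cyclin L1, had 91.5, 93.4 and 95.3% in WT E7107 and 33.1, 38.9 and 48.2% in Y36C E7107, lower by far and without overlap (limma adjusted p = 3.5e-09 and 1.9e-08). CCNT2 intron 9, printed above, had 97.8, 98.9 and 99.3% in WT E7107 and 73.6, 77.3 and 83.9% in Y36C E7107, a difference of -20.5 points without overlap (limma adjusted p = 9.9e-08 and 1.9e-08). CDK11A held 5 members and its copy CDK11B 1, and reads of the 2 genes are hard to separate.

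In the list of noncoding host genes and other long noncoding RNAs, 7 of 12 members were called lower and none higher in Y36C E7107 by limma, beside 63.4% and 8.39% over all introns. The 7 were introns of SNHG1, GAS5, TUG1 and SNHG15 only. Of the other introns of SNHG1 and GAS5, 8 of 9 and 9 of 9 were called lower too. At an unadjusted p under 0.05 at both boundaries, 0 were higher and 7 lower. TUG1 intron 2 (chr22:31369574-31371155), in the 3′ UTR of an annotated transcript, had 89.5, 94.9 and 96.9% in WT E7107 and 54.0, 65.6 and 70.4% in Y36C E7107, a difference of -29.7 points (limma adjusted p = 5.3e-06 and 1.8e-06). SNHG4 intron 6 (chr5:138615748-138618427) had overlapping ranges of 48.4 to 63.3% and 57.3 to 64.0% (limma adjusted p = 0.41 and 0.0084). The cleavage and export list had ZC3H11A intron 2 (chr1:203765625-203770702), in the 5′ UTR of a zinc finger export factor gene, with 81.8, 87.5 and 92.2% against 58.6, 66.0 and 71.1%, and lower by 22.2 points in Y36C E7107 than in WT E7107 (limma adjusted p = 2.9e-05 and 1.5e-05).

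The contrasts of E7107 with DMSO share the DMSO samples that chose the introns at middle levels, which leaves room on both sides, so their counts describe the set and nothing is read from them. In WT, 278 members were called higher and 169 lower of 1114 tested, beside 72.2% and 3.29% of 37151 introns tested. Without the filter on low values the shares over all 85270 introns were 37.6% and 1.65%, with 271 and 148 members called. The median change over the set was 0.441 points in WT (quartiles -14.3 and 18.2), with 22.96% of members up and 15.9% down by 20 points or more, beside 21.8% and 0.112% of the other introns. The introns of low scatter with the largest positive differences in WT were CCNL1 intron 4 (26.2 ± 3.98% to 93.5 ± 1.54%, mean ± SD, 6 samples each), RBM12B intron 3 (29.2 ± 5.82% to 92.9 ± 1.76%), RFNG intron 3 (28.4 ± 6.36% to 88.9 ± 2.92%) and LRRC14 intron 1 (39.8 ± 2.96% to 98.7 ± 0.779%). RFNG codes for a fringe glycosyltransferase that acts on Notch and LRRC14 for a leucine-rich repeat protein, an exon of the opposite strand crosses a boundary of LRRC14 intron 1, and none of these 4 introns overlapped between WT DMSO and WT E7107. Those with the largest negative differences were QTRT1 intron 6 (61.4 ± 5.54% to 13.7 ± 3.01%), GTF2IP4 intron 18 (60.8 ± 3.57% to 14.0 ± 7.14%), CDK5RAP3 intron 7 (60.4 ± 4.75% to 17.5 ± 5.09%) and RSRP1 intron 3 (70.2 ± 4.91% to 29.7 ± 3.20%).

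In Y36C cells, 319 members were called higher and 15 lower under E7107 of 1122 tested, beside 22.4% and 0.322% of 23318 introns tested, or 5.79% and 0.0683% of 76089 without the filter (278 and 11 members). The median change was 9.33 points (quartiles 1.87 and 17.5), and 80.7% of members had a higher mean, beside 71.6% of the other introns. RSRP1 intron 3 was lower under E7107 in Y36C as well, from 65.8 ± 3.27% to 27.1 ± 3.91%. RFNG intron 3 went from 32.3 ± 3.61% to 72.0 ± 4.30%. Of 1100 members tested in both genotypes, 100 were called higher in both, 4 lower in both, 35 lower in WT and higher in Y36C, and 4 the reverse.

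The contrast of the genotypes in DMSO uses only the samples that chose the introns, whose means the rule held to the same range in both groups, so its counts are a description from which nothing is read. In it, 0 members were called in either direction of 1119 tested by limma, beside 0.0641% higher and 0.00986% lower over 20279 introns. At an unadjusted p under 0.05 at both boundaries, 55 members were higher and 13 lower in Y36C DMSO. The interaction of genotype and drug, fitted on all 24 samples and so in part on those that chose the introns, was called in 275 members where the change in Y36C was the higher and in 141 where it was the lower, of 1137 tested, beside 5.65% and 53.7% of 41446 introns, or 2.54% and 29.0% of 88641 without the filter.

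The genes of the detained introns offered a comparison within genes, though not always within the same transcripts. In 700 genes that also had other introns read (median 7 per gene), the median over genes in WT E7107 was 47.6% for the detained introns and 14.98% for the others, and in Y36C E7107 57.5% and 8.94%. Under E7107 the difference between Y36C and WT was 10.6 points for detained introns and -4.21 points for the other introns of the same genes. Single genes varied. CCNL1's 6 other introns had a median of 57.1% in WT E7107 and all were called lower in Y36C E7107, and the 8 others of EIF4A2 had 76.0% with all 8 called lower. The 5 others of QTRT1 had 8.38% in WT E7107, with 2 called higher of 4 tested. The 11 others of CDK5RAP3 had 10.6%, with 8 called lower of 10 tested, while its introns 5 and 7, both members, were called higher.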

How the data were processed

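PolyA RNA of 24 HCT116 samples was sequenced. The deposited files give the percent spliced in (PSI) that the authors computed from raw STAR junction counts on hg19, as a percentage of all reads at a splice site. Rows without strand or on mitochondrial DNA (6433 of 1830076 per file) were left out. Members were found by the rule above, and members, gene lists and the rule for named introns were chosen with earlier results of these data known. The offset and filter follow an earlier analysis of the same files.

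The log odds of PSI, with 1 point added to PSI and to its complement, were tested with limma 3.58.1 in R 4.3.3 over all rows with a PSI above 0 in all samples of a group, and p-values were adjusted over all rows tested. Genotypes and treatments were compared within the groups concerned, and the interaction over all 24 samples. Named were the 2 members highest in DMSO of each gene list, and the 4 members with the largest difference in each direction, both between genotypes under E7107 and from DMSO to E7107 in WT, among members with SDs of at most 10 points. The 3 introns on each side of the lower limit were named regardless of SD. Introns were placed by GENCODE 44 lifted to GRCh37, and 98.92% of 5000 introns drawn at random read GT-AG there. Scripts ran in Python 3.11.15 with pandas 2.3.3, numpy 2.4.6 and pysam 0.24.0, and the fit was tested on simulated data. Alternatives were other offsets, PSI itself as response, no filter, a replicate block, other rules for a call, boundary rows only, each sample left out, and, chosen after seeing the data, rows without variation left out.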

Additional observations from a re-analysis of the deposited data

Results flagged for a closer look

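In 116 sets of 6 samples (28 named introns and the median over all detained introns, each in 4 groups), 5 held a sample far from the others by Dixon's ratio, whose chance rate is about 1 set in 20. These were the lowest WT E7107 sample of SRSF2 intron 4 (88.4%), the highest WT E7107 sample of DDX11 intron 8 (77.3%), the lowest Y36C DMSO sample of CHEK1 intron 12 (75.7%), the lowest WT DMSO sample of SNHG1 intron 6 (26.9%) and the highest WT DMSO sample of KLHL17 intron 5 (41.1%).

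The change under E7107 differed between the genotypes in 18 of the 28 named introns, by limma's interaction term at both boundaries. The rule and the naming used the DMSO samples that enter this term, so the values describe these introns. The change in Y36C minus that in WT was 61.5 points in GTF2IP4 intron 18, 59.2 in METTL3 intron 9, 55.6 in QTRT1 intron 6, 46.8 in CDK5RAP3 intron 7 and 36.8 in MUTYH intron 11. In these the change in WT was the lower. Smaller positive values were 7.998 points in CHEK1 intron 12, 7.87 in KHSRP intron 19 and 6.26 in HNRNPM intron 6. It was negative in SNHG1 intron 6 (-62.6 points), CCNL1 intron 4 (-57.1), USF1 intron 9 (-57.1), RBM12B intron 3 (-56.5) and KLHL17 intron 5 (-52.8). Also negative were LRRC14 intron 1 (-47.8), TUG1 intron 2 (-36.8), ZC3H11A intron 2 (-25.9), SRSF10 intron 1 (-21.2) and RFNG intron 3 (-20.9). In all of these introns the mean rose in WT. In Y36C the mean fell in SNHG1 intron 6, USF1 intron 9 and KLHL17 intron 5, and rose less than in WT in the others.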

How the results depend on the processing

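Of the counts of called introns under other settings, 226 stayed within 1.5 times the reported count and 8 did not, and 364 values of single named introns, run under the replicate block and with each sample left out only, kept their direction and call. A call from either boundary gave 286 lower in WT (169 reported), 480 higher and 35 lower in Y36C (319 and 15), 6 higher in Y36C DMSO (0) and 430 higher for the interaction (275). PSI itself as response gave 1 higher in Y36C DMSO, as did leaving out Y36C DMSO replicate 5. Leaving out each sample gave 322 to 353 higher and 166 to 179 lower in Y36C E7107 than in WT E7107, 272 to 283 and 141 to 173 in WT, 283 to 302 and 10 to 14 in Y36C, 0 to 1 and 0 to 0 in DMSO, and 255 to 280 and 137 to 145 for the interaction. Deviations from the group mean, over all rows tested, had correlations from -0.00396 to 0.00585 between samples with the same replicate number. Such values over mostly noisy rows cannot show whether the numbers pair samples, and the labels do not say. The replicate block gave 325 and 161 between genotypes under E7107, 265 and 153 in WT, 249 and 9 in Y36C, 0 and 0 in DMSO, and 265 and 140 for the interaction. The causes were not tested. Depth is unknown, so no interval for counting error can be given.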
